A study of Mus musculus with 2 samples.

Results

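Mir221, Mir222, Mir146 and Mir146b were the 4 members described, out of 1638 miRNA features in the smRNA-seq table. They were chosen by name, with earlier results of these data known, and Mir146 is the name that the table gives to the hairpin of miR-146a. The table held 1 library of wild-type E14 mESCs and 1 library of germ cells from male E15.5 embryos of C57Bl/6J background. The methods give feeder-free culture with LIF and inhibitors of MEK and GSK3 for naive E14 mESCs, and the labels do not say whether this library came from that culture. The germ cells, called primordial germ cells in the labels and prospermatogonia in the methods and hereafter, came from embryos with an Oct-4/GFP transgene, and the number of embryos is not given in the sources used here. With 1 library of each kind, the differences below were not checked in replicates. Values in parentheses after a level or a ratio are 95% Wilson intervals, which describe the counting of reads alone, because PCR copies of a molecule are counted as separate reads.

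miRNAs are short RNAs cut from a hairpin precursor that guide Argonaute proteins to mRNAs, mainly by pairing of the seed, bases 2 to 8 of the mature miRNA. In the postnatal testis, miR-221 and miR-222 are known to hold spermatogonia in the undifferentiated state by repressing Kit, the receptor for stem cell factor, and retinoic acid lowers both. miR-146a is likewise known from undifferentiated spermatogonia, where it acts on Med1, a coactivator of retinoid signalling, and in blood cells it damps NF-kB signalling through Traf6 and Irak1. Kit is also a surface receptor of migrating and early gonadal germ cells, which is why the level of its repressors before birth is of interest. The germ cells of these data are fetal prospermatogonia, not the postnatal spermatogonia in which these roles were described.

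The mature sequences show how the members fall into seed groups. Sequences and positions are from RefSeq (GRCm38.p6), are written 5′ to 3′, and have the seed in capitals.
miR-221-3p: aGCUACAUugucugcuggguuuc
miR-222-3p: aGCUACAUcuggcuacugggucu
miR-146a-5p: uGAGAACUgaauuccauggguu
miR-146b-5p: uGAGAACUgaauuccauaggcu
miR-221-3p and miR-222-3p share the seed GCUACAU and their first 8 bases, and are the same at 11 of 23 positions. Of 1738 mature miRNAs in the table of sequences, 1 other, miR-1928, has this seed, and Mir1928 was listed at 0 reads in both libraries. The seed GAGAACU occurs only in miR-146a-5p and miR-146b-5p among these mature miRNAs. The latter differ by G18A and U21C, with positions counted from 1 at the 5′ end and the base of miR-146a-5p first.

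The hairpins are the features that the table counts, and they had the same positions in RefSeq as in the deposited table. The arm printed above is in capitals.
Mir221, chrX:19146294-19146388, minus strand: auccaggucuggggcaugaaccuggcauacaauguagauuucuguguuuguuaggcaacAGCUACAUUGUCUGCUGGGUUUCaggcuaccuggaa
Mir222, chrX:19146893-19146971, minus strand: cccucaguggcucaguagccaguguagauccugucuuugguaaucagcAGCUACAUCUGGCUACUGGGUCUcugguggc
Mir146, chr11:43374397-43374461, minus strand: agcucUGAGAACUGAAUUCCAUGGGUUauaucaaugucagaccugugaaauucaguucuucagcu
Mir221 and Mir222 lie 504 bases apart on the same strand, and in GENCODE vM21 no other gene overlaps either of them. The nearest other gene is Gm14636, a processed transcript 10009 bases from Mir222 on the same strand. Mir146 also overlaps no other gene and lies 11020 bases from the lincRNA Gm12148, which is on the opposite strand. Mir146b, chr19:46342762-46342870 on the plus strand, lies within an intron of Mfsd13a. The longest stretch that Mir221 or Mir222 shares with another of 1005 annotated hairpins is 12 bases. Mir146 and Mir146b share 21 bases, so that reads without the bases that tell them apart could not be divided between these copies. The table gives 1 value per hairpin, and the arms were not told apart.

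Levels are given as recovered reads, as RPM (reads scaled to a library total of 1000000) and as a share of miRNA reads. The library totals were 449643 reads for mESCs and 2869578 for prospermatogonia, of which 110455 and 155237 were miRNA reads. A read was worth 2.22 RPM in mESCs and 0.348 RPM in prospermatogonia. RPM, the library totals and the miRNA part of each library depend on reading the deposited values as log2 RPM. The sources used here do not state this, whereas reads and shares of miRNA reads do not depend on it. On this reading, miRNA reads were 24.6% of the mESC library and 5.41% of the prospermatogonia library. A feature with an equal share of miRNA reads is then 4.54-fold lower in RPM in prospermatogonia. The authors describe the small RNAs of mESCs as mostly miRNAs, and the 24.6% was not reconciled with that. A miRNA read is a whole mature molecule, and levels were therefore not divided by hairpin length.

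All members that had reads were lower in prospermatogonia than in mESCs, both per library total and among miRNA reads, and Mir146b had no read in either library. Most features were lower per library total. Of the 203 features with 10 RPM or more in either library, 80.8% were at least 2-fold lower in RPM. With the libraries scaled to equal miRNA reads, 39.9% were. Together the members held 136 reads in mESCs, 0.123% of the miRNA reads (0.104% to 0.146%), and 38 reads in prospermatogonia, 0.0245% (0.0178% to 0.0336%). These shares differ by 5.03-fold (3.52 to 7.19), and the corresponding RPM by 22.8-fold (16.0 to 32.7). The members were thus minor miRNAs in both libraries.

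Mir222 was the highest member in both libraries. It had 63 reads in mESCs, which is 140 RPM (110 to 179) and rank 94 among the 285 features with a read. In prospermatogonia it had 31 reads, 10.8 RPM (7.61 to 15.3), rank 123 of 317 features with a read. The ratio was 13.0-fold lower in prospermatogonia (8.46 to 19.9). As a share of miRNA reads, Mir222 was 0.0570% in mESCs and 0.0200% in prospermatogonia, 2.86-fold lower (1.86 to 4.38). Of the members with reads it kept the largest part of its mESC level by these ratios, although their intervals overlap those of Mir146.

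Mir221 was close to Mir222 in mESCs and well below it in prospermatogonia. It had 58 reads in mESCs, 129 RPM (99.8 to 167) and rank 95, directly below Mir222. In prospermatogonia it had 5 reads, 1.74 RPM (0.744 to 4.08), and shared rank 197 with the other features that had 5 reads. The ratio was 74.0-fold lower (30.6 to 179), and 16.3-fold lower as a share of miRNA reads (6.73 to 39.5). The deeper prospermatogonia library would have held 370 reads at the RPM of mESCs and 81.5 reads at their share of miRNA reads.

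Mir146, the source of miR-146a, was the lowest member with reads. It had 15 reads in mESCs, 33.4 RPM (20.2 to 55.0) and rank 137. In prospermatogonia it had 2 reads, 0.697 RPM (0.191 to 2.54), a count shared by 30 features. The ratio of these few reads was 47.9-fold lower, with an interval from 12.2 to 188, and 10.5-fold lower as a share of miRNA reads (2.69 to 41.3). With 2 reads, the level of Mir146 in prospermatogonia is poorly fixed, as the width of these intervals shows.

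Mir146b was listed at 0 reads in both libraries. A count of 0 allows up to 3 reads, or 6.67 RPM in mESCs and, in the deeper prospermatogonia library, 1.05 RPM, and no ratio is given. In mESCs the limit lies below the interval of Mir146, whereas in prospermatogonia it lies within it. The order in mESCs was Mir222, Mir221, Mir146 and Mir146b, of which Mir222 and Mir221 did not differ beyond their counting intervals. In prospermatogonia Mir222 was above the other members, and the intervals of Mir221 and Mir146 overlapped.

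**Figure D1:**
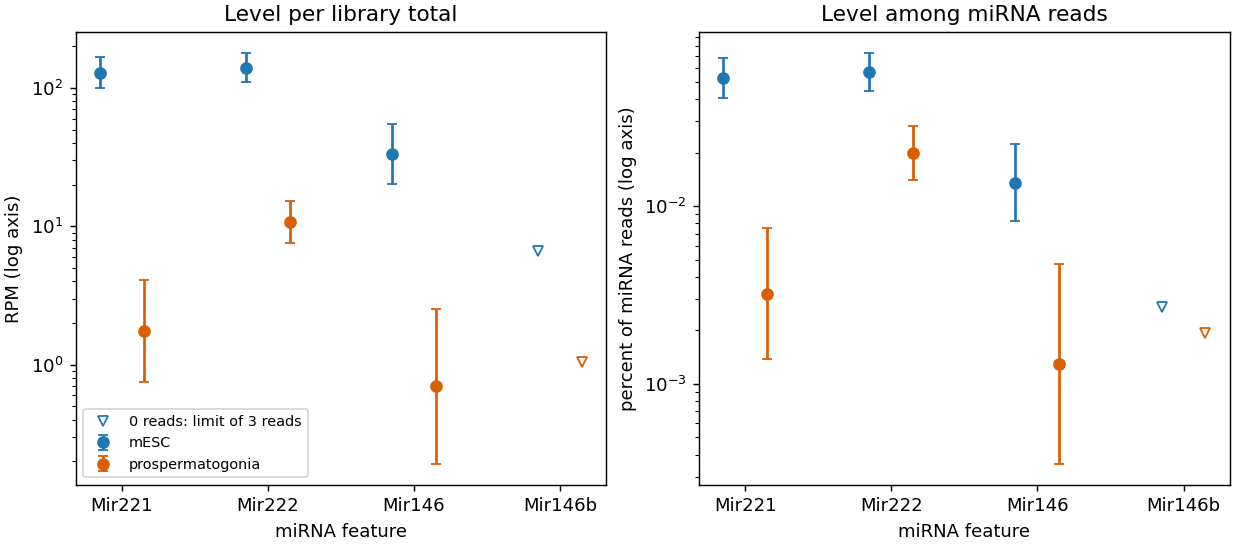
Levels of the 4 members in the mESC library (blue) and the prospermatogonia library (orange), as RPM on the left and as percent of miRNA reads on the right, both on log axes; bars are 95% Wilson intervals of reads, and open triangles mark the limit of 3 reads for a feature with 0 reads. Mir222 falls from 140 to 10.8 RPM, Mir221 from 129 to 1.74 RPM and Mir146 from 33.4 to 0.697 RPM. Of the 203 features with 10 RPM or more in either library, 80.8% were at least 2-fold lower in RPM.

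The neighbouring Mir221 and Mir222 did not keep the same proportion in both libraries. In mESCs Mir222 held 63 of the 121 reads of the pair, 52.1% (43.2% to 60.8%). In prospermatogonia it held 31 of 36 reads, 86.1% (71.3% to 93.9%), and the intervals do not overlap. Mir222 thus had 1.09 reads per read of Mir221 in mESCs and 6.20 in prospermatogonia. This proportion is formed within each library and does not change with the scaling of the libraries. It was noticed after the values were seen, and the 5 reads of Mir221 in prospermatogonia limit its precision.

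**Figure D2:**
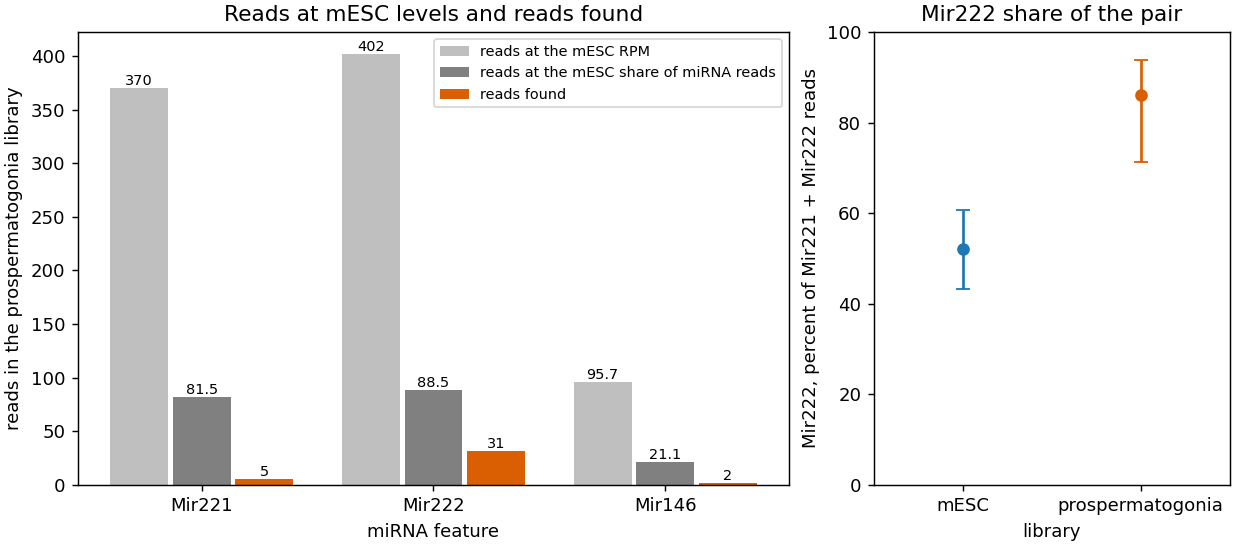
Left, reads of Mir221, Mir222 and Mir146 in the prospermatogonia library (orange) beside the reads that this library would have held at the RPM of mESCs (light grey) and at their share of miRNA reads (dark grey). Right, Mir222 as percent of the reads of Mir221 and Mir222 together, with 95% Wilson intervals; it is 52.1% in mESCs and 86.1% in prospermatogonia.

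Most miRNAs were lower in RPM in prospermatogonia, and the members have to be read against that background. A feature entered this background when either library held 10 RPM of it. Of the 203 features that did, 80.8% were at least 2-fold lower in prospermatogonia and 9.85% at least 2-fold higher, on the scale of log2(RPM + 1). The median log2 ratio of prospermatogonia to mESC was -2.52. Mir221, at -5.57, was the 13th lowest of the 203 features, Mir146, at -4.34, the 36th lowest and Mir222, at -3.58, the 55th lowest. All of them passed the fold of 2, as did most features. Mir221 and Mir146 entered the 203 features only through their mESC level, and Mir222 reached 10 RPM in both libraries. A feature that enters only through mESCs is lower in RPM in prospermatogonia by construction. The places of Mir221 and Mir146 are thus shaped by the filter and are a description. Of the 203 features, 76 passed in mESCs only, 16 in prospermatogonia only and 111 in both.

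With the libraries scaled to equal miRNA reads, 39.9% of the 203 features were at least 2-fold lower and 20.2% at least 2-fold higher, so that higher features made up 33.6% of the calls in place of 10.9%. The median log2 ratio was then -0.46, and the ratios were -3.87 for Mir221, -3.04 for Mir146 and -1.50 for Mir222. The direction of all of these was thus the same under both scalings. Each lay below the median of the 203 features, a set that Mir221 and Mir146 entered only through their mESC level. Scaling to the median ratio placed them at -3.70, -2.90 and -1.31.

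**Figure D3:**
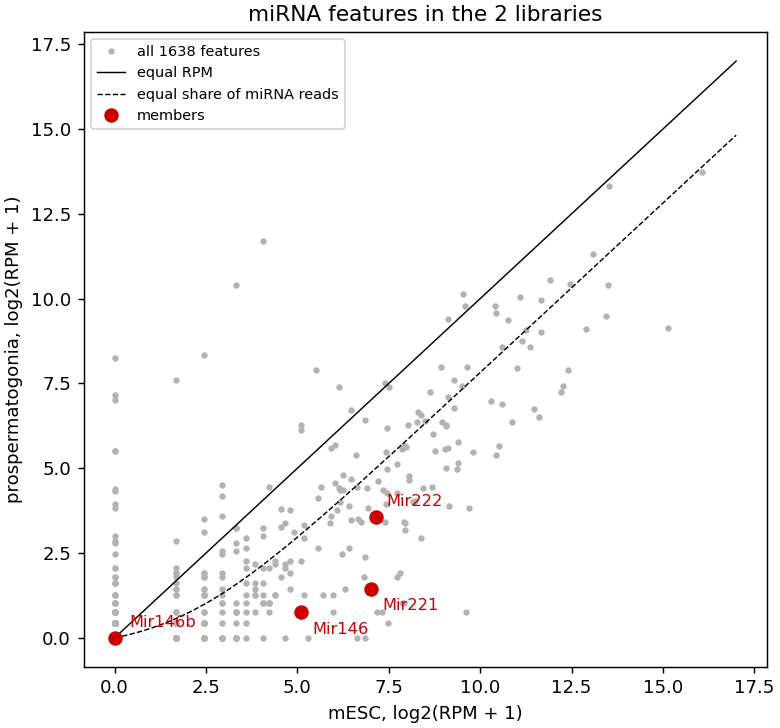
log2(RPM + 1) of all 1638 features in the mESC library (horizontal) and the prospermatogonia library (vertical), with the members in red. The solid line marks equal RPM and the dashed line an equal share of miRNA reads; Mir221, Mir222 and Mir146 lie below both lines, and Mir146b lies at 0 on both axes.

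The features nearest to each member over the 2 libraries were found by the distance of their log2(RPM + 1) values. Nearest to Mir222 was Mir301b, with 66 and 31 reads in mESCs and prospermatogonia, followed by Mir28 and Mir136, at distances of 0.067, 0.28 and 0.35. Nearest to Mir221 were Mir125b-1, with 50 and 7 reads, then Mir34a and Mir150, at 0.39, 0.71 and 0.72. Nearest to Mir146 were Mir135b, with 16 and 4 reads, then Mir203 and Mir200c, at 0.50, 0.76 and 0.78. No member was among the 3 nearest features of another member. With 2 libraries such a distance compares only a pair of levels.

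Other miRNAs that have been reported to repress Kit were scarce in both libraries. Of Mir193, Mir193b, Mir494, Mir218-1 and Mir218-2, none reached 10 RPM in either library. Most features did not, since 203 of all 1638 reached it. Mir193b was the highest of them, with 4 reads in mESCs and 14 in prospermatogonia, 8.90 and 4.88 RPM, a ratio 1.82-fold lower in RPM whose interval of 0.631 to 5.27 includes equal levels, and which turned to higher with equal miRNA reads. Mir193 had 2 reads and 0, Mir494 had 1 read in each library, and both Mir218 copies had none. Within prospermatogonia, Mir222 with 31 reads was above the 15 reads of these 5 features together.

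Of 9 listed miRNAs studied by others in undifferentiated spermatogonia, 6 passed the filter of 10 RPM, with 4 at least 2-fold lower, 1 higher and 1 in between, where 80.8% of all features were lower and 9.85% higher. Their median log2 ratio was -2.58, against -2.52 for all features past the filter. The 1 higher feature, Mir202, reached 10 RPM only in prospermatogonia and is thus higher in RPM by construction. Mir21, known for a role in survival of spermatogonial stem cells, had 2215 reads in mESCs and 486 in prospermatogonia, 29.1-fold lower in RPM (26.4 to 32.1). Mir106a and Mir20a, which belong to paralogous clusters and share a seed, were 17.4-fold (13.6 to 22.1) and 7.09-fold lower (5.90 to 8.53). The log2 ratios of Mir21, Mir106a and Mir20a, at -4.85, -4.07 and -2.81, lay below the median of all features.

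Mir31 had 112 and 138 reads and was 5.18-fold lower in RPM (4.04 to 6.64), the same as the median ratio of the features above 10 RPM in both libraries. Mir322 had 29 reads in mESCs and 145 in prospermatogonia, and its ratio of 1.28-fold lower has an interval from 0.859 to 1.90 that includes equal RPM, and it turned to higher, at a log2 ratio of 1.81, with equal miRNA reads. Mir202, a miRNA of the gonads found in both Sertoli cells and germ cells, had 0 reads in mESCs and 57 in prospermatogonia, 2.98-fold higher when set against 3 reads in the mESC library and at least 2.33-fold higher by the end of the 95% interval nearest to equality. In prospermatogonia each of Mir21, Mir20a, Mir31, Mir322, Mir106a and Mir202 thus had more reads than any member. These 6 are the features of the list that passed the filter. Of those below it, Mir135a-1 and Mir224 had 0 reads in prospermatogonia and Mir135a-2 had 1, fewer than Mir222, Mir221 and Mir146. With equal miRNA reads, 2 of the 6 were at least 2-fold lower and 2 higher, where 39.9% and 20.2% of all features were.

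The Mir34 and Mir449 genes, whose miRNAs share a seed and are known from meiotic and later male germ cells, were described in the same way. Of 6 listed, 4 passed the filter, 3 of them at least 2-fold lower, against 80.8% of all features. The median log2 ratio of the 4 was -3.50. Mir34a, Mir34b and Mir449c reached 10 RPM only in mESCs and are thus lower in RPM by construction, so that this median is shaped by the filter. With equal miRNA reads 2 of the 4 were at least 2-fold lower and 1 higher. Mir34a had 65 reads in mESCs and 2 in prospermatogonia, a ratio 207-fold lower (55.9 to 770), and Mir34c had 297 and 88 reads, 21.5-fold lower (17.0 to 27.3). Mir34b had 11 and 9 reads and was 7.80-fold lower (3.32 to 18.3). Mir449c had 5 reads in mESCs and 15 in prospermatogonia, and the interval of its ratio, 0.804 to 5.63-fold lower, includes equal RPM, and it turned to higher, at a log2 ratio of 1.03, with equal miRNA reads. Mir449a had 2 and 8 reads, and Mir449b had none in either library.

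Blood and endothelial cells are also rich in miR-146a, miR-221 and miR-222, so that markers of these cells are given beside the members. Of 6 listed blood miRNAs, Mir223 and Mir144 had 0 reads in both libraries, and Mir451, which is abundant in red cells, had 0 in mESCs and 1 in prospermatogonia. Mir142 had 400 and 124 reads, Mir150 had 35 and 5, and Mir155 had 13 and 22. The summed level of the blood list was 996 RPM in mESCs and 53.0 RPM in prospermatogonia, and Mir126, of endothelial cells, had 255 reads (567 RPM) and 40 reads (13.9 RPM). Mir150 and Mir155 reached 10 RPM only in mESCs and are thus lower in RPM by construction, although Mir155 turned to higher with equal miRNA reads. Mir142, Mir150, Mir155 and Mir126 were at least 2-fold lower in RPM in prospermatogonia, as were 80.8% of the 203 features. In a library of cultured mESCs these features need not mark blood or endothelial cells. The part of these cells in the members' levels was not tested.

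Markers of mesenchyme and gonadal soma were, in sum, also lower in RPM in prospermatogonia. Of 7 listed, Mir199a-1 and Mir199a-2 had 0 reads in both libraries, and the summed level was 3821 RPM in mESCs and 306 RPM in prospermatogonia. Mir143 held most of the mESC sum, with 1393 reads against 260 in prospermatogonia, and Mir140 most of the prospermatogonia sum, with 558 reads against 280 in mESCs, lower in RPM and higher among miRNA reads. Mir214 had 28 and 2 reads, and Mir145 had 17 and 0. Mir202 went the other way, with 0 reads in mESCs and 57 in prospermatogonia. Their part in the members' levels was not tested either.

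Markers of the 2 cell types are given as a description. Their lists were chosen with earlier results of these data known, so they are not an independent check of identity. The 6 listed members of the Mir290 cluster, which marks pluripotent cells, held 24.2% of the miRNA reads in mESCs and 3.25% in prospermatogonia, a part still present in the latter. The 7 listed X-linked miRNAs of male germ cells held 3.49% of the miRNA reads in prospermatogonia and 0.00362% in mESCs. Each of these lists thus held the larger share in the library whose label it goes with.

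**Figure D4:**
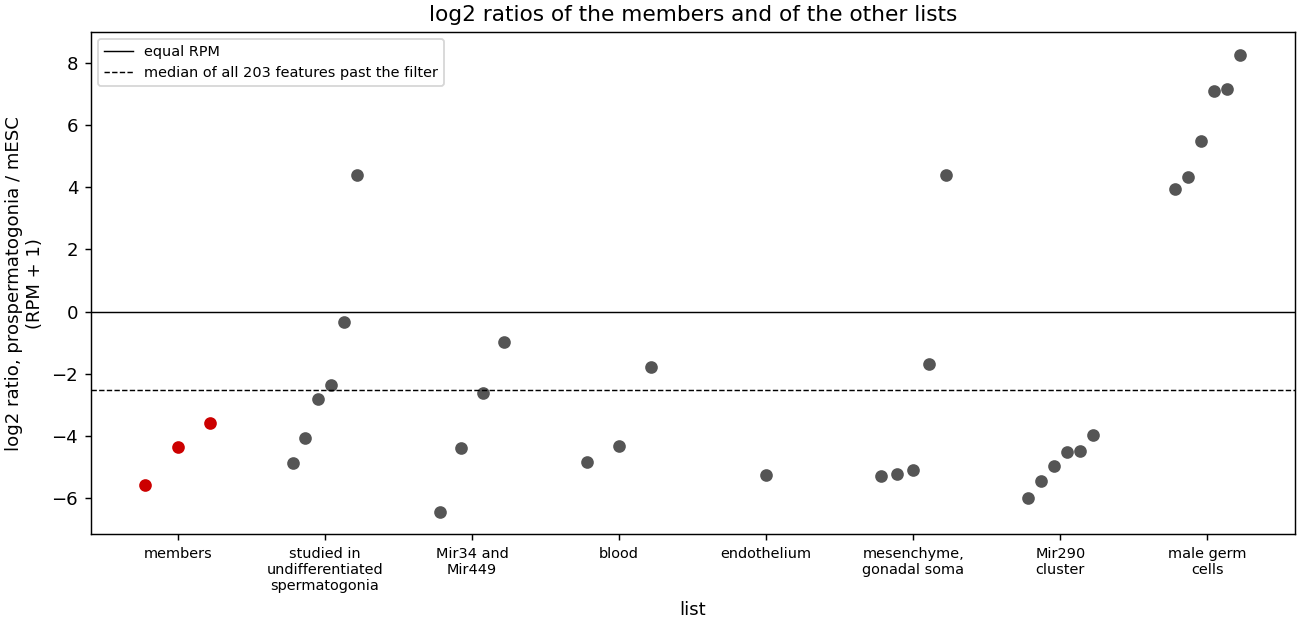
log2 ratio of prospermatogonia to mESC, on the scale of RPM + 1, for the features of each list that reached 10 RPM in either library; each point is 1 feature, the solid line is equal RPM and the dashed line the median of all 203 such features. The members, at -5.57, -4.34 and -3.58, lie below the dashed line. Mir202, which is on 2 lists, and the male germ cell list lie above 0. A feature that reached 10 RPM in 1 library only lies on the side of that library by construction. This holds, among others, for Mir221, Mir146, Mir202 and all plotted features of the male germ cell list.

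The seed matches in the mRNAs named in the background are shown as a description, since mRNA levels are not part of these data. The match to bases 2 to 8 of miR-221-3p and miR-222-3p is ATGTAGC on the mRNA strand. It occurs in 9.45% of the longest 3′ UTRs of 21037 protein-coding genes in GENCODE vM21 (median length 960 bases), and in 1.18% at least 2 times. The longest annotated 3′ UTR of Kit, of 2177 bases, holds 2 matches, each followed by an A, and the match is in capitals.
Kit, chr5:75654977-75655006, plus strand, GRCm38: aatgatgggagatatATGTAGCaagactag
Kit, chr5:75656508-75656537, plus strand, GRCm38: tttgtaaatattgaaATGTAGCaataatgt
These matches start 447 and 1978 bases after the stop codon.

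The match to bases 2 to 8 of miR-146a-5p is AGTTCTC, which occurs in 11.1% of the same 3′ UTRs and in 0.261% at least 3 times. The longest annotated 3′ UTR of Med1, of 3086 bases, holds 3 matches, and 1 of them, printed here, is followed by an A.
Med1, chr11:98153907-98153936, minus strand, GRCm38: tttgagtgcaacagaAGTTCTCagtatttg
Those of Traf6 and Irak1 hold 4 and 2 matches, in 4170 and 1526 bases. At least 4 matches occur in 0.0618% of the 3′ UTRs of all genes and at least 2 in 1.40%. Longer 3′ UTRs hold more matches of any such motif, and a match of these letters is not a measured site.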

How the data were processed

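smRNA-seq libraries of 1 mESC and 1 prospermatogonia sample were analysed. The authors trimmed the reads (Trim Galore 0.4.1 in the submitters' processing notes), mapped them with Bowtie, and deposited log2 values for 1638 miRNA features. The methods name piPipes and mm9, the processing notes GRCm38, and 1300 features (79.4%) were placed as miRNA genes are in GENCODE vM21, which uses GRCm38. The step that gave the values, and its use of strand and multiple matches, are not given in the sources used here. Linear values were whole multiples of a constant per library, within 0.0165 reads, and features at the lowest value, 0.9 reads, were set to 0. Library totals were 1000000 divided by the RPM of a read. log2 ratios used a pseudocount of 1 RPM, which understates changes of low features, and were called at a fold of 2 among features that reached 10 RPM in either library. No test across conditions was possible. Ratio intervals came from Wilson intervals of a feature's reads in one library among its reads in both. Folds in the text are ratios of RPM without a pseudocount, and log2 ratios include it.

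Named features were the members, the 3 nearest features to each, and list members that reached 10 RPM in either library. Others, such as the Kit list below this level, were named after their values were seen. Members and lists were chosen with earlier results of these data known. Seeds, hairpins and 3′ UTRs (the longest per gene) were read from RefSeq and GENCODE tables. Pseudocounts of 0.1 and 5, 3 other scalings, no filter, a 4-fold threshold and other denominators were tried. Computations were tested on simulated reads. Analyses used scipy 1.17.1, pandas 2.3.3 and numpy 2.4.6 in Python 3.11.15, and plots matplotlib 3.10.9.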

Additional observations from a re-analysis of the deposited data

How the results depend on the processing

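Replicates were not left out, there being 1 library of each kind. No paired analysis was possible because the values come from single libraries without a test. No member, median or count changed direction under any alternative, and of 38 other named features that were run, the 5 given below did. A value was taken as moved when it left its counting interval, or for medians when it changed by more than 0.5, and for counts of features when it changed by more than 1.5 times. The scalings fix the shifts below, since each multiplies all prospermatogonia values by 1 factor.

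Under scaling to the median ratio, to all miRNA reads, and to the miRNA reads without the 10 highest features of each library, in this order, the log2 ratio of Mir221 was -3.70, -3.87 and -3.80, that of Mir222 was -1.31, -1.50 and -1.42, and that of Mir146 was -2.90, -3.04 and -2.99. The median was -0.28, -0.46 and -0.39 for all features, -0.23, -0.42 and -0.34 for the list of undifferentiated spermatogonia, and -1.31, -1.49 and -1.42 for Mir34 and Mir449. The number of features at least 2-fold lower was 74, 81 and 78 in place of 164, and the number higher was 45, 41 and 44 in place of 20. In the same order, Mir322 turned to 2.004, 1.81 and 1.89, Mir449c to 1.21, 1.03 and 1.10, Mir193b to 1.41, 1.23 and 1.30, Mir140 to 0.69, 0.50 and 0.58, and Mir155 to 0.44, 0.26 and 0.33.

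With a pseudocount of 5, Mir221 was at -4.31, Mir146 at -2.75 and all features at -1.98, since it draws low values toward equality. Without a filter the median of all features was -1.70 and that of Mir34 and Mir449 -2.62, and 40 features were higher. Without the 10 highest features of each library in the denominator, the members held 0.443% of the miRNA reads in mESCs and 0.0927% in prospermatogonia. Depth limits Mir146 and Mir221 in prospermatogonia, with 2 and 5 reads.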
